A study of Homo sapiens with 6 samples.

Results

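The proteasome genes are taken here as the protein-coding rows of the deposited table whose symbol starts with PSM, a letter from A to G and a digit. There were 49 such genes among 58735 in the table. Of these, 47 had enough reads to be tested, among 15496 tested genes in all. The rule uses names alone and no measured value. One of the 49, PSMC3IP, matches by name only: it encodes a protein of meiotic recombination and no part of the proteasome. It had a log2 fold change of 0.08 (adjusted p = 0.742), and 48 proteasome genes remained, 46 of them tested.

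The study sequenced polyadenylated RNA from SW1990, an established pancreatic ductal adenocarcinoma cell line, in 6 libraries. In 3 libraries (EPZ 1 to 3, called treated below) the cells had received 5 µM EPZ-5676, also known as pinometostat, a small molecule that inhibits the histone H3 methyltransferase DOT1L. In the 3 control libraries (NC 1 to 3) the cells had received no inhibitor: the sample records call them untreated, while the treatment description gives an equal volume of DMSO. All libraries come from 1 cell line, no genotype differs between the groups, and the sources used here give no treatment time. Nothing in the labels says that the replicates were separate cultures, so the p-values below rest on variation among these samples alone, and that variation may be technical. In bulk RNA, fewer cells of a kind and less RNA per cell cannot be told apart.

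Depth ran from 33970420 to 39749648 reads per library. Correlations of log2 CPM (read counts scaled to the size of the library, with library sizes scaled by TMM) were 0.977 to 0.981 within groups and 0.954 to 0.975 between them. Of 7 epithelial markers, KRT7, KRT8 and KRT18 were abundant, while CDH1, a defining one, had 0 reads in all 6 libraries. The 7 summed to 5365 to 6168 CPM among controls and 6549 to 8341 CPM among treated libraries, without overlap. In the tests described below, 2 of the 6 tested were higher and 0 lower, against 15.0% and 18.7% of all tested genes. After correction for GC content and length, 0 were higher and 0 lower, against 5.41% and 5.57%. The 7 leukocyte markers together reached 2.29 to 10.6 CPM among controls and 3.85 to 5.82 CPM among treated libraries, the highest value being in control 2, which held nearly all reads of PTPRC and LYZ. The 7 fibroblast markers summed to 89.5 to 94.8 CPM and 95.4 to 101 CPM. The 6 endothelial markers summed to 1.80 to 3.18 CPM and 1.60 to 3.38 CPM, with KDR at 0. The part of these signals in the values below was not tested.

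The proteasome is the large protease that degrades ubiquitin-tagged proteins in the cytosol and nucleus. Its core particle is a barrel of outer alpha rings, which gate the entry, and inner beta rings, which hold the active sites. A regulatory particle caps the barrel: its lid removes the ubiquitin chain and its base, built around a ring of ATPases, unfolds the substrate. Dedicated chaperones assemble both particles, and other caps can replace the regulatory particle. Cells that lose proteasome activity are known to raise the subunit genes together through the transcription factor NFE2L1, and interferon exchanges the catalytic beta subunits for the immunoproteasome forms.

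Proteasome genes moved in both directions after EPZ-5676. In the uncorrected edgeR quasi-likelihood test (Benjamini-Hochberg adjusted p under 0.05 over all 15496 genes), 16 of the 47 tested members, 34.0%, were lower in treated cells, where 18.7% of all tested genes were. In the other direction 7 members, 14.9%, were higher, where 15.0% of all tested genes were. The median log2 fold change of the members was 0.01, with a range of -0.83 to 0.53 and quartiles of -0.46 and 0.21, while the median of all tested genes was -0.05. The higher members were PSMB2, PSMB3, PSMB5 and PSMB6 of the core's beta ring, PSMD3 and PSMD4 of the regulatory particle, and the chaperone PSMG3. The lower ones were PSMA3, PSMA4 and PSMA5 of the alpha ring, PSMC1, PSMC2, PSMC6, PSMD1, PSMD6, PSMD7, PSMD12 and PSMD14 of the regulatory particle, the chaperones PSMD5, PSMD10, PSMG1 and PSMG2, and the activator PSME4. With DESeq2 the split was 11 higher and 16 lower. The count of higher members was 2 without control 3, 1 without treated 1, 4 without treated 2 and 11 without control 2.

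In these libraries fold changes followed the base composition of the transcript, so each member is also given after a correction for GC content and length. For each library a smooth trend of log2 CPM on both properties of the gene's longest transcript was fitted and removed before the test. This removes any treatment effect that itself follows GC content or length. After it 6 members, 12.8%, were higher, against 5.41% of all tested genes: PSMB1, PSMB2, PSMB4, PSMB5, PSMD3 and PSMF1. Only 3 members, 6.38%, were lower, against 5.57% of all tested genes: PSMA7, PSMC1 and PSMG2. The median became 0.05 for the members and -0.00 for all tested genes. When the properties were taken from the principal transcript of each gene instead, 4 members, 8.51%, were higher, against 4.76% of all genes (PSMB2, PSMB5, PSMD3 and PSMF1), and 5, 10.6%, were lower, against 5.46% (PSMA7, PSMC1, PSMD14, PSME2 and PSMG2). Called in the same direction in all 3 fits were 5 members: PSMB2, PSMB5 and PSMD3 as higher, and PSMC1 and PSMG2 as lower. In the text below, "corrected" means the longest-transcript version unless the principal transcript is named.

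**Figure D1:**
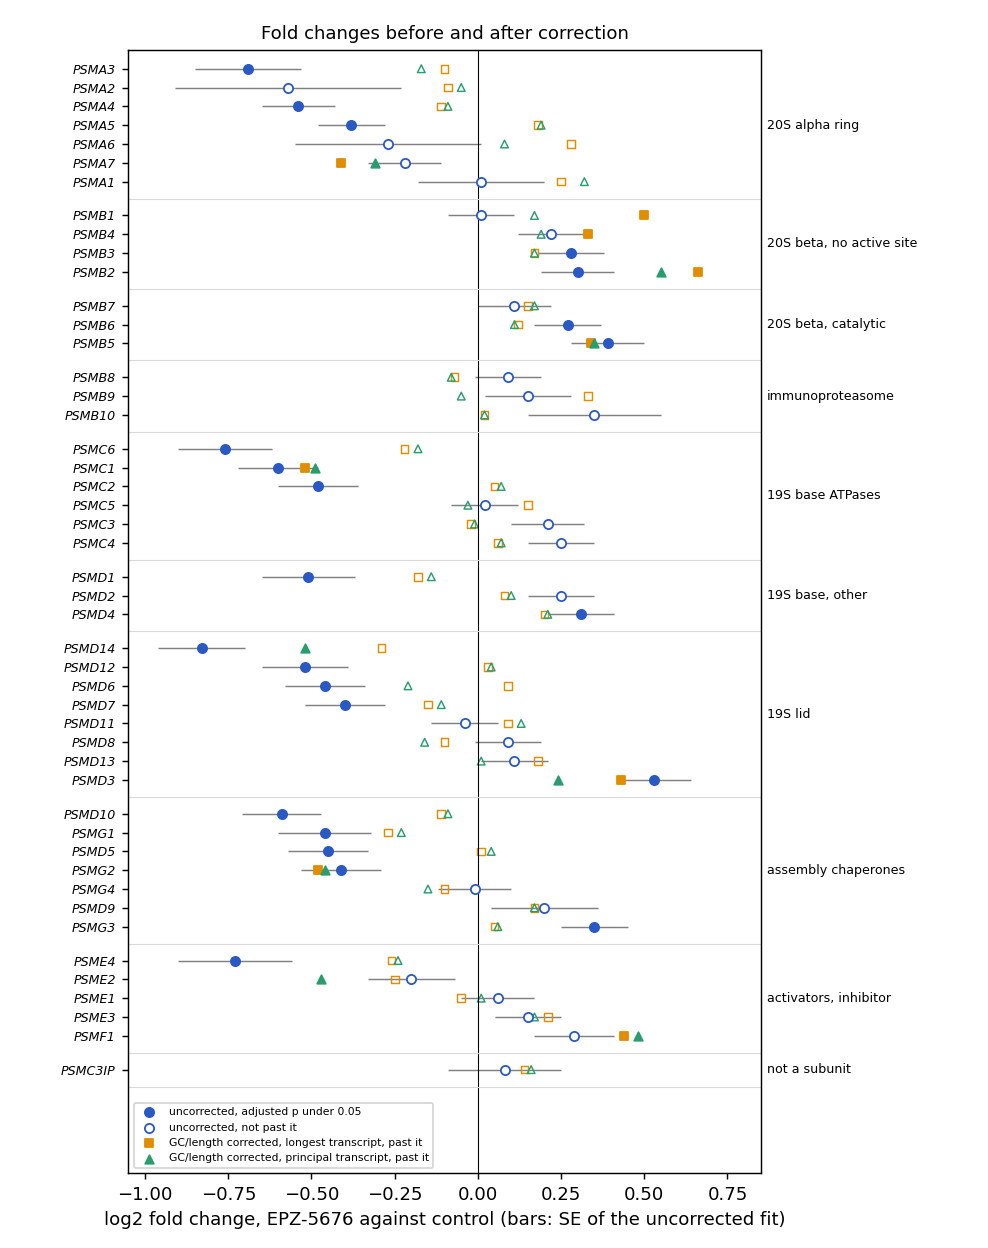
Log2 fold change of EPZ-5676 against control for the 47 tested members, grouped by role, in the uncorrected fit (circles, bars are its SE) and after GC and length correction with the longest (squares) or the principal transcript (triangles). Filled symbols have an adjusted p under 0.05 and open ones do not; PSMD14 has the lowest uncorrected value at -0.83 and PSMD3 the highest at 0.53, and most of the low values lie nearer 0 after correction.

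Upstream sequence is shown for the 5 members that were called in all 3 fits, so that the promoters of higher and lower members can be read side by side. Each run is the 250 bases before the RefSeq start of the gene in GRCh38.p14, 5′ to 3′ on the gene's strand. By the gene bounds of GENCODE 29, the windows of PSMB2 and PSMG2 lie inside the gene. Capitals mark matches to CCAAT (the letters bound by NF-Y) and to TGACNNNGC (the core of the antioxidant response element, bound by NFE2L1 and NFE2L2 with small MAF proteins), on either strand.
PSMB2, chr1:35641527-35641776, minus strand: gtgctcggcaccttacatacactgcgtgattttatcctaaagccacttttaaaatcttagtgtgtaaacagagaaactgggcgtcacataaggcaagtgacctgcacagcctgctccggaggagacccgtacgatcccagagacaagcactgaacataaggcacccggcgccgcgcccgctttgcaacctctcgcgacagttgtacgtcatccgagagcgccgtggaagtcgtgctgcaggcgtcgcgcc
PSMB5, chr14:23035221-23035470, minus strand: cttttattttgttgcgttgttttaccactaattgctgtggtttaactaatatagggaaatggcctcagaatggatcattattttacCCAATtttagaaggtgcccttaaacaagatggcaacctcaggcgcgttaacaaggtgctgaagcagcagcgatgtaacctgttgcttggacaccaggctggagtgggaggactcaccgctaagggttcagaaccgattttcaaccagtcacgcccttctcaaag
PSMD3, chr17:39980557-39980806, plus strand: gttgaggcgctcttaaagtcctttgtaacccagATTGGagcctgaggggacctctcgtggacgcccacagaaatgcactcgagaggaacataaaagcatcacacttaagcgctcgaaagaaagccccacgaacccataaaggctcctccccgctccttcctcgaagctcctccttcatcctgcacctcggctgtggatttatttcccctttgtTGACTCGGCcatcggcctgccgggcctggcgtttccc
PSMC1, chr14:90256303-90256552, plus strand: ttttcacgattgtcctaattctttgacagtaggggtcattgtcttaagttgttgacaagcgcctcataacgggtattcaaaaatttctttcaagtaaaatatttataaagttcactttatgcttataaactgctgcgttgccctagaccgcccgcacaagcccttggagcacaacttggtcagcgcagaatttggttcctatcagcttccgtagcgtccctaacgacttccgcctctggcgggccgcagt
PSMG2, chr18:12658488-12658737, plus strand: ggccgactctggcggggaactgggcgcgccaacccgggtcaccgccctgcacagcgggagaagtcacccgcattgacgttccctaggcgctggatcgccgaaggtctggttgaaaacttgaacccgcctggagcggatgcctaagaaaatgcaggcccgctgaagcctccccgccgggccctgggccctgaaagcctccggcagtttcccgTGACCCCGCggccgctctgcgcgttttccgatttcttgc

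The window of PSMD3 held both motifs, PSMB5 held CCAAT, PSMG2 held the antioxidant core, and PSMB2 and PSMC1 held neither. Of the 49 members, 43 had an entry in the RefSeq promoter table; PSMA7, PSMB1, PSMB6, PSMB7, PSMD4 and PSMG3 had none. TGACNNNGC was found in 11 of the 43 windows (25.6%) and in 11.0% of 27305 RefSeq windows of the same length. It occurred in 2 of the 4 matched members that were higher in the uncorrected test, in 5 of the 16 lower and in 4 of the 23 others. These others include PSMC3IP and the untested PSMA8 and PSMB11. CCAAT was found in 19 of 43 (44.2%), against 33.0% of all windows: 3 of 4 higher, 8 of 16 lower and 8 of 23 other members. PSMB11 and PSMC3IP are among the other members with CCAAT. The GC box GGGCGG, not marked by capitals, was found in 27 (62.8%), against 42.3% of all windows; matches of different motifs may overlap. The cAMP response element TGACGTCA was found in 0 of 43, against 1.77%. These matches are letters in a window and describe no binding.

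In the beta ring of the core more than 1 member was higher, and none was lower, in each of the 3 fits. Of its 7 constitutive genes, 4 were higher in the uncorrected test, 4 after correction and 2 with the principal transcript, where 15.0%, 5.41% and 4.76% of all tested genes were. Without treated 1 none of the 7 was called higher uncorrected and 2 were corrected; leaving out another library gave 1 to 5 and 3 to 4. Their summed level was 1900.0 ± 151 CPM (SD, n = 3) among the controls and 2187 ± 203 CPM among treated libraries. Library by library the sums were 1922, 2039 and 1739.7 CPM among controls and 2421, 2082 and 2057 CPM among treated libraries. The groups did not overlap, though treated 2 and 3 lay close above control 2.

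PSMB5 (chr14:23016543-23035230, minus strand, ENSG00000100804) carries the chymotrypsin-like activity and is the main target of bortezomib. Its level was 241, 266 and 228 CPM across controls 1 to 3 against 367, 302 and 298 CPM across treated 1 to 3. Every treated library lay above every control, with treated 1 the highest. The fitted log2 fold change was 0.39 ± 0.11 (SE; edgeR adjusted p = 0.00779). It was 0.34 ± 0.08 (adjusted p = 0.00859) corrected and 0.35 ± 0.08 (adjusted p = 0.00506) with the principal transcript. Leaving out treated 1 ended the call, with an adjusted p of 0.0505 uncorrected and 0.0634 corrected.

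PSMB6, the caspase-like subunit, read 177, 193 and 166 CPM across controls 1 to 3 against 239, 204 and 202 CPM across treated 1 to 3. The groups did not overlap, and the log2 fold change was 0.27 ± 0.10 (SE; edgeR adjusted p = 0.0483), just past the threshold. Its corrected value was 0.12 ± 0.07 (adjusted p = 0.363). The uncorrected call was lost in 5 of the 6 fits that leave out a library, with adjusted p of 0.0803 without control 1, 0.186 without control 3, 0.211 without treated 1, 0.0641 without treated 2 and 0.0684 without treated 3. PSMB7, the trypsin-like subunit, had the highest level per length of all members. It read 593, 643 and 524 CPM across controls 1 to 3 against 705, 607 and 582 CPM across treated 1 to 3. Here the groups overlapped, and the log2 fold change was 0.11 ± 0.11 (SE; edgeR adjusted p = 0.483) and 0.15 ± 0.08 (adjusted p = 0.275) corrected.

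PSMB2, a beta subunit without an active site, read 106, 126 and 119.7 CPM across controls 1 to 3 against 157, 131 and 143 CPM across treated 1 to 3. All treated values were above all controls, though treated 2 exceeded control 2 only narrowly. On the log2 scale the difference was 0.30 ± 0.11 (SE; edgeR adjusted p = 0.0340), 0.66 ± 0.12 (adjusted p = 0.00222) corrected and 0.55 ± 0.10 (adjusted p = 0.00107) with the principal transcript, the largest corrected rise among the members. The uncorrected call was lost in 4 of the 6 fits that leave out a library, with adjusted p of 0.106 without control 1, 0.0739 without control 3, 0.147 without treated 1 and 0.0916 without treated 3; the corrected call was kept in all 6 such fits.

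PSMB3, also without an active site, read 176, 178 and 159.5 CPM across controls 1 to 3 against 233, 203 and 190.4 CPM across treated 1 to 3. Its treated values all lay above its controls and its log2 fold change was 0.28 ± 0.10 (SE; edgeR adjusted p = 0.0376), but 0.17 ± 0.08 (adjusted p = 0.175) corrected. The call was lost with an adjusted p of 0.152 without control 3, 0.180 without treated 1 and 0.0649 without treated 2.

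PSMB4, another structural beta subunit, read 388, 401 and 343 CPM across controls 1 to 3 against 478, 417 and 425 CPM across treated 1 to 3. Its groups did not overlap, and the log2 fold change was 0.22 ± 0.10 (SE; edgeR adjusted p = 0.100) uncorrected, 0.33 ± 0.08 (adjusted p = 0.0112) corrected and 0.19 ± 0.07 (adjusted p = 0.109) with the principal transcript. The corrected call was lost with an adjusted p of 0.0726 without control 3 and 0.0924 without treated 1, while the uncorrected value passed with an adjusted p of 0.0458 without control 2. PSMB1, the last structural subunit of the ring, read 240.3, 232 and 199 CPM across controls 1 to 3 against 241, 219 and 217 CPM across treated 1 to 3. Its groups overlapped, with an uncorrected log2 fold change of 0.01 ± 0.10 (SE; edgeR adjusted p = 0.935). It was 0.50 ± 0.09 (adjusted p = 0.00142) corrected and 0.17 ± 0.08 (adjusted p = 0.190) with the principal transcript. The longest transcript of PSMB1 has a GC content of 40.7% and its principal one 48.3%. Its corrected call was kept whichever library was left out.

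The immunoproteasome genes did not pass the threshold in any of the 3 fits. PSMB8, which replaces PSMB5, read 112, 113 and 103 CPM across controls 1 to 3 against 126, 115 and 106 CPM across treated 1 to 3, with overlapping groups and a log2 fold change of 0.09 ± 0.10 (SE; edgeR adjusted p = 0.547), or -0.07 ± 0.08 (adjusted p = 0.662) corrected. PSMB9, which replaces PSMB6, read 40.5, 45.7 and 34.7 CPM across controls 1 to 3 against 47.4, 40.5 and 46.2 CPM across treated 1 to 3, again with overlap, and had 0.15 ± 0.13 (SE; edgeR adjusted p = 0.383). Its corrected value was 0.33 ± 0.11 (adjusted p = 0.0689), and leaving out control 2 brought that to an adjusted p of 0.0131. With the principal transcript the value for PSMB9 was -0.05 ± 0.10 (adjusted p = 0.801). The longest transcript of PSMB9 has a GC content of 46.9% and its principal one 56.1%. PSMB10, which replaces PSMB7, read 7.09, 7.01 and 6.14 CPM across controls 1 to 3 against 9.75, 7.13 and 8.95 CPM across treated 1 to 3, and the treated values lay above the controls, control 1 and treated 2 nearly touching. The difference for it was, as log2 fold change, 0.35 ± 0.20 (SE; edgeR adjusted p = 0.179) and 0.02 ± 0.17 (adjusted p = 0.970) corrected. PSMB11, the thymus-specific form of the chymotrypsin-like subunit, had 4 reads, all in control 2, and was not tested.

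Per length, the immunoproteasome gene stood below its constitutive partner in each pair. As a share of PSMB5 in CPM per kilobase of merged exons, PSMB8 was 27.4%, 25.0% and 26.5% among the controls and 20.3%, 22.5% and 21.0% in the treated libraries. The means were 26.3 ± 1.21% and 21.3 ± 1.14% (SD, n = 3), and every treated library was below every control. PSMB9 as a share of PSMB6 was 10.6 ± 0.667% and 9.83 ± 0.835%, with overlapping groups. PSMB10 as a share of PSMB7 was 1.11 ± 0.0533% and 1.32 ± 0.176%, but the count of PSMB10 is uncertain, as described with the overlapping genes below. These ratios carry no test and no correction.

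**Figure D2:**
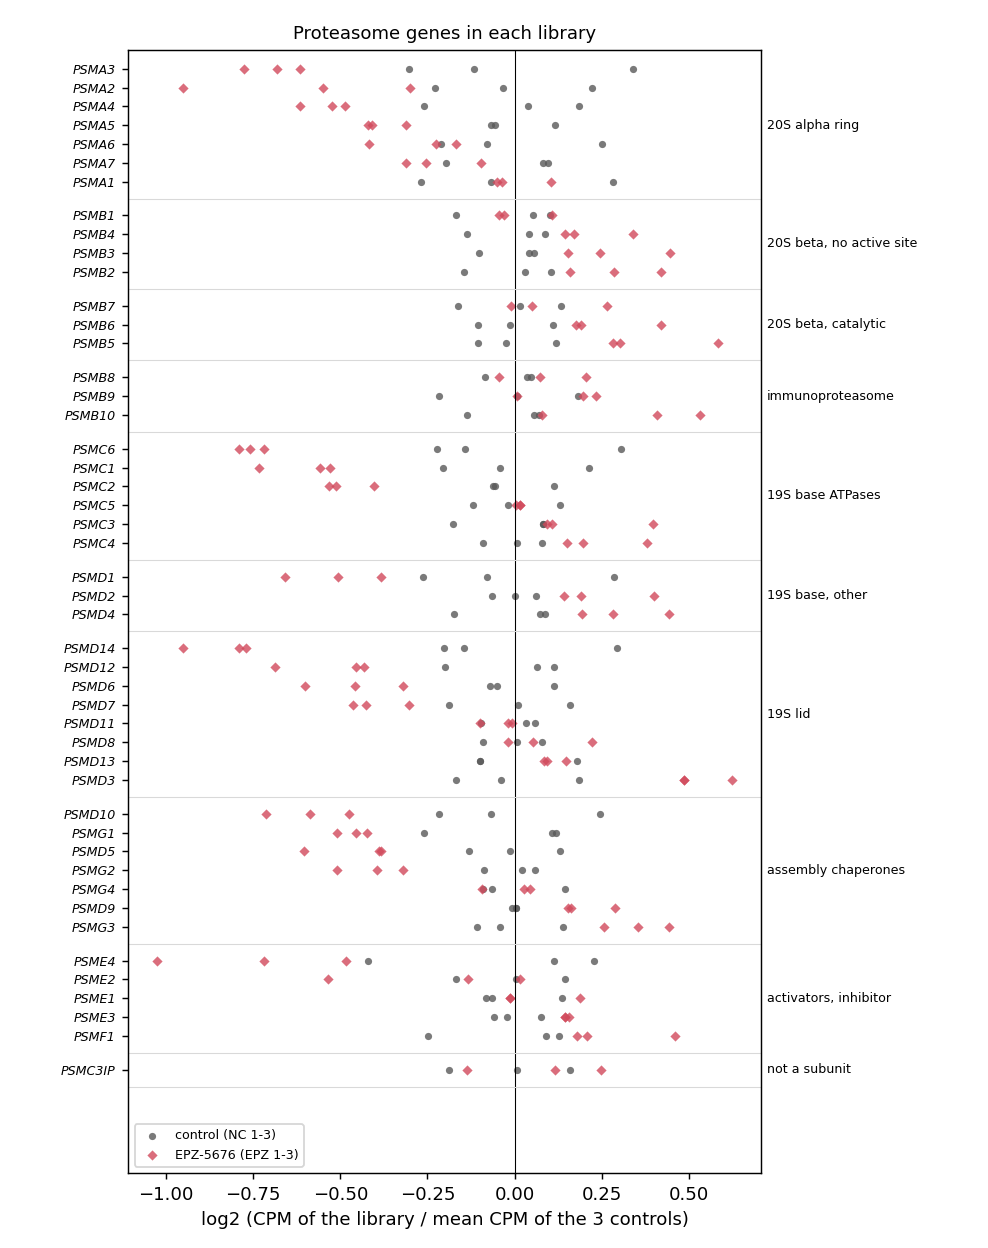
Level of each of the 47 tested members in each library, as log2 of its CPM over the mean CPM of the 3 controls, with controls as grey circles and treated libraries as red diamonds. In the beta ring PSMB2, PSMB3, PSMB4, PSMB5 and PSMB6 have their treated points right of the controls, while PSMB1 and PSMB7 have overlapping groups. PSMA3, PSMA4, PSMA5, PSMC6 and PSMD14 have their treated points left of the controls.

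In the alpha ring, 3 of the 7 tested genes were lower and none was higher in the uncorrected test. Among all tested genes 18.7% were lower and 15.0% higher. The counts of another 3 alpha genes are uncertain, as described with the overlapping genes below. The summed level was 846 ± 88.7 CPM (SD, n = 3) among the controls and 684 ± 28.1 CPM among treated libraries. The control sums of 923, 866 and 749 CPM were all above the treated sums of 713, 657 and 683 CPM. Most of the sum came from PSMA7, at 514 ± 56.8 CPM among controls and 442 ± 34.6 CPM among treated libraries. PSMA7 had overlapping groups and was not called in the uncorrected test (edgeR adjusted p = 0.119). After correction none of the 3 lower genes passed, while PSMA7 did.

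PSMA3, a structural alpha subunit, read 35.1, 22.5 and 25.6 CPM across controls 1 to 3 against 16.2, 17.3 and 18.1 CPM across treated 1 to 3. Control 1 was the highest, and all treated values lay below the controls. This was a log2 fold change of -0.69 ± 0.16 (SE; edgeR adjusted p = 0.00302) and -0.10 ± 0.12 (adjusted p = 0.674) corrected. PSMA4, also structural, read 154, 139 and 113 CPM across controls 1 to 3 against 88.3, 94.1 and 96.6 CPM across treated 1 to 3, without overlap. The log2 fold change was -0.54 ± 0.11 (SE; edgeR adjusted p = 0.00135) and -0.11 ± 0.10 (adjusted p = 0.534) corrected. PSMA5 read 167, 148 and 147 CPM across controls 1 to 3 against 115, 116 and 124 CPM across treated 1 to 3, again without overlap. Its log2 fold change was -0.38 ± 0.10 (SE; edgeR adjusted p = 0.00665), and the corrected value had the opposite sign, 0.18 ± 0.08 (adjusted p = 0.174). All 3 uncorrected calls were kept when any 1 library was left out.

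PSMA7, the alpha subunit with the highest level, read 549, 544 and 448 CPM across controls 1 to 3 against 481, 414 and 431 CPM across treated 1 to 3. The groups overlapped, since control 3 lay below treated 1, and the uncorrected log2 fold change was -0.22 ± 0.11 (SE; edgeR adjusted p = 0.119). It was -0.41 ± 0.08 (adjusted p = 0.00244) corrected and -0.31 ± 0.08 (adjusted p = 0.0150) with the principal transcript. Its transcript has a GC content of 55.5%, high among the members. The corrected call was kept in all 6 fits that leave out a library. The other tested alpha genes, PSMA1, PSMA2 and PSMA6, had levels of 1.09 to 12.1 CPM and log2 fold changes of 0.01 (adjusted p = 0.971), -0.57 (adjusted p = 0.210) and -0.27 (adjusted p = 0.489). PSMA8, the testis form that stands in for PSMA7, had 0 reads in every library.

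The ATPase ring of the base split: PSMC1, PSMC2 and PSMC6 were lower in the uncorrected test, and PSMC3, PSMC4 and PSMC5 did not pass. That is 3 of 6 lower, against 18.7% of all tested genes, and after correction 1 of 6, against 5.57%. Their summed level was 841 ± 73.0 CPM among controls and 882 ± 71.1 CPM among treated libraries (SD, n = 3), with overlap. These proteins thread and unfold the substrate with energy from ATP.

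PSMC1 (chr14:90256495-90275429, plus strand, ENSG00000100764) read 72.5, 60.7 and 54.2 CPM across controls 1 to 3 against 37.6, 42.4 and 43.3 CPM across treated 1 to 3. The highest treated value was below the lowest control. EdgeR gave a log2 fold change of -0.60 ± 0.12 (SE; edgeR adjusted p = 0.00111), -0.52 ± 0.11 (adjusted p = 0.00254) corrected and -0.49 ± 0.11 (adjusted p = 0.00369) with the principal transcript. PSMC1 was lower past the threshold in all 25 alternative analyses, with values from -0.70 to -0.40 and adjusted p from 3.9e-05 to 0.0244. Of its merged exons, 75.8% lie opposite exons of NRDE2 on the other strand. NRDE2 read 5.21 to 10.6 CPM and had a log2 fold change of -0.49 (adjusted p = 0.0821). Whether the counting used strand is not stated in the sources used here, so reads of the pair may not be separable. The same limit holds for other members with smaller overlaps on the other strand, such as PSMD7 (30.7%), PSMB8 (20.6%) and PSMG2 (16.7%).

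PSMC2 read 53.5, 47.6 and 47.4 CPM across controls 1 to 3 against 34.7, 34.2 and 37.4 CPM across treated 1 to 3, without overlap, and had a log2 fold change of -0.48 ± 0.12 (SE; edgeR adjusted p = 0.00367). The corrected value was 0.05 ± 0.10 (adjusted p = 0.824). PSMC6 read 51.3, 37.6 and 35.6 CPM across controls 1 to 3 against 24.0, 24.5 and 25.2 CPM across treated 1 to 3, with every treated value well below every control. For this gene edgeR gave a log2 fold change of -0.76 ± 0.14 (SE; edgeR adjusted p = 6.7e-04) and -0.22 ± 0.11 (adjusted p = 0.236) corrected. Both uncorrected calls were kept whichever library was left out. PSMC3, PSMC4 and PSMC5, the more abundant ATPases, had log2 fold changes of 0.21 (adjusted p = 0.156), 0.25 (adjusted p = 0.0632) and 0.02 (adjusted p = 0.918). The treated libraries of PSMC3 and PSMC4 all lay above the controls, and PSMC4 passed the test without control 2 (adjusted p = 0.0317).

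Among the other base subunits, the ubiquitin receptor PSMD4 was higher and the scaffold PSMD1 lower in the uncorrected test, and neither passed after correction. PSMD4 read 206, 204 and 172 CPM across controls 1 to 3 against 264, 236 and 222 CPM across treated 1 to 3. The groups did not overlap, and the log2 fold change was 0.31 ± 0.10 (SE; edgeR adjusted p = 0.0275) and 0.20 ± 0.08 (adjusted p = 0.122) corrected. Its uncorrected call was lost with an adjusted p of 0.152 without control 3, 0.121 without treated 1 and 0.0558 without treated 2, and its corrected value passed with an adjusted p of 0.0440 without control 1. PSMD1 read 58.1, 39.7 and 45.1 CPM across controls 1 to 3 against 30.2, 36.5 and 33.5 CPM across treated 1 to 3, with control 1 far above the rest. Its fitted log2 fold change was -0.51 ± 0.14 (SE; edgeR adjusted p = 0.00752) and -0.18 ± 0.10 (adjusted p = 0.319) corrected, and the call was lost with an adjusted p of 0.0705 without control 1. PSMD2, the other scaffold and by CPM the most abundant member, ranged from 996 to 1376 CPM and had 0.25 (adjusted p = 0.0681), which passed without control 2 (adjusted p = 0.0395).

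In the lid, which holds the deubiquitinating enzyme, 4 of 8 genes were lower and 1 was higher in the uncorrected test, and 0 and 1 after correction. Among all tested genes 18.7% were lower and 15.0% higher uncorrected, and 5.57% and 5.41% corrected. PSMD3, a scaffold subunit of the lid (chr17:39980797-39997960, plus strand, ENSG00000108344), read 162, 207 and 177 CPM across controls 1 to 3 against 280.5, 255 and 255 CPM across treated 1 to 3. The lowest treated value was well above the highest control. The fitted log2 fold change was 0.53 ± 0.11 (SE; edgeR adjusted p = 9.5e-04), 0.43 ± 0.08 (adjusted p = 0.00127) corrected and 0.24 ± 0.07 (adjusted p = 0.0282) with the principal transcript. PSMD3 was higher past the threshold in all 25 alternatives, with values from 0.24 to 0.65 and adjusted p from 1.1e-05 to 0.0282. PSMD3 and PSMC1 were the only members called in every one of them.

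PSMD14, the metalloprotease that cuts the ubiquitin chain from the substrate, read 103, 76.0 and 73.1 CPM across controls 1 to 3 against 43.5, 49.3 and 48.6 CPM across treated 1 to 3. Control 1 stood above the other controls, and all treated values were below every control. The log2 fold change of -0.83 ± 0.13 (SE; edgeR adjusted p = 1.3e-04) was the largest fall among the members. The corrected value was -0.29 ± 0.11 (adjusted p = 0.0887), and -0.52 ± 0.09 (adjusted p = 8.4e-04) with the principal transcript. Its longest transcript has a GC content of 32.0% and its principal one 45.3%. Leaving out control 3 brought the longest-transcript value past the threshold (adjusted p = 0.00762).

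PSMD7, the inactive partner of PSMD14 in the lid, read 58.7, 52.9 and 46.1 CPM across controls 1 to 3 against 39.1, 38.1 and 42.6 CPM across treated 1 to 3. The groups did not overlap and the log2 fold change was -0.40 ± 0.12 (SE; edgeR adjusted p = 0.0148), but -0.15 ± 0.10 (adjusted p = 0.387) corrected. The uncorrected call was lost with an adjusted p of 0.0806 without control 1, 0.0526 without treated 1 and 0.0600 without treated 2. PSMD6, a structural lid subunit, read 52.4, 46.1 and 46.8 CPM across controls 1 to 3 against 38.8, 35.3 and 31.9 CPM across treated 1 to 3, also without overlap. The difference for it was, as log2 fold change, -0.46 ± 0.12 (SE; edgeR adjusted p = 0.00674), 0.09 ± 0.12 (adjusted p = 0.683) corrected and -0.21 ± 0.10 (adjusted p = 0.199) with the principal transcript, and the call was lost with an adjusted p of 0.0520 without treated 3. PSMD12, likewise structural, read 47.2, 45.6 and 38.0 CPM across controls 1 to 3 against 32.3, 27.1 and 31.8 CPM across treated 1 to 3. All treated values lay below the controls, with a log2 fold change of -0.52 ± 0.13 (SE; edgeR adjusted p = 0.00449) and 0.03 ± 0.13 (adjusted p = 0.906) corrected. The remaining lid genes, PSMD8, PSMD11 and PSMD13, had overlapping groups and log2 fold changes of 0.09 (adjusted p = 0.539), -0.04 (adjusted p = 0.792) and 0.11 (adjusted p = 0.441). PSMD13 passed in 1 of the 25 alternatives, the corrected test without control 1 (adjusted p = 0.0289). With the principal transcript PSMD13 had 0.01 ± 0.08 (adjusted p = 0.977).

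Of the 7 assembly chaperones, 4 were lower and 1 was higher before correction, and 1 and 0 after it. The shares of all tested genes are again 18.7% and 15.0%, and 5.57% and 5.41%. PSMG1 and PSMG2 form the pair that starts alpha ring assembly. PSMG2 (chr18:12658043-12725740, plus strand, ENSG00000128789) read 38.2, 39.2 and 35.4 CPM across controls 1 to 3 against 28.6, 26.4 and 30.1 CPM across treated 1 to 3. No treated value reached the lowest control. On the log2 scale the difference was -0.41 ± 0.12 (SE; edgeR adjusted p = 0.0160), -0.48 ± 0.10 (adjusted p = 0.00388) corrected and -0.46 ± 0.10 (adjusted p = 0.00506) with the principal transcript. It was called in 24 of 25 alternatives, the exception being the uncorrected fit without treated 2 (adjusted p = 0.0758). PSMG1 read 35.0, 34.7 and 26.9 CPM across controls 1 to 3 against 23.5, 22.6 and 24.0 CPM across treated 1 to 3, where control 3 stood below the other controls. Its log2 fold change was -0.46 ± 0.14 (SE; edgeR adjusted p = 0.0143) and -0.27 ± 0.12 (adjusted p = 0.150) corrected. The uncorrected call was lost with an adjusted p of 0.0648 without control 1 and 0.0503 without treated 2, and the corrected value passed with an adjusted p of 0.0457 without control 3.

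The base chaperones PSMD5 and PSMD10 were both lower in the uncorrected test. PSMD10, also known as gankyrin, read 83.1, 60.4 and 67.0 CPM across controls 1 to 3 against 50.5, 46.7 and 42.8 CPM across treated 1 to 3. The groups did not overlap, and the log2 fold change was -0.59 ± 0.12 (SE; edgeR adjusted p = 0.00143) and -0.11 ± 0.10 (adjusted p = 0.552) corrected. PSMD5 read 59.8, 49.9 and 54.1 CPM across controls 1 to 3 against 35.9, 41.9 and 41.7 CPM across treated 1 to 3, without overlap. For this gene edgeR gave a log2 fold change of -0.45 ± 0.12 (SE; edgeR adjusted p = 0.00590) and 0.01 ± 0.09 (adjusted p = 0.954) corrected. Both uncorrected calls were kept whichever library was left out.

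PSMG3, which works with PSMG4 on the alpha ring, was the one chaperone that was higher. It read 97.9, 111 and 93.6 CPM across controls 1 to 3 against 137, 129 and 120.5 CPM across treated 1 to 3, and the groups did not overlap. This was a log2 fold change of 0.35 ± 0.10 (SE; edgeR adjusted p = 0.0127), but 0.05 ± 0.08 (adjusted p = 0.725) corrected, and its transcript has one of the highest GC contents of the members at 58.8%. Leaving out a library ended the call, with an adjusted p of 0.0724 without control 3 and 0.0564 without treated 1. PSMG4 had -0.01 (adjusted p = 0.975), with overlapping groups. PSMD9, the third base chaperone, read 12.8 to 15.7 CPM, the treated libraries above the controls, and had 0.20 (adjusted p = 0.345).

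Of the alternative caps and the inhibitor, PSME4 alone was called in the uncorrected test. PSME4 encodes the large nuclear activator linked to histone degradation. It read 40.3, 25.7 and 37.2 CPM across controls 1 to 3 against 16.9, 24.6 and 20.9 CPM across treated 1 to 3. Treated 2 lay just under control 2, so that the groups did not overlap by a small margin. The log2 fold change was -0.73 ± 0.17 (SE; edgeR adjusted p = 0.00280) and -0.26 ± 0.12 (adjusted p = 0.188) corrected, and the uncorrected call was kept whichever library was left out. PSMF1, which encodes an inhibitor of the core particle, read 76.6, 99.4 and 96.8 CPM across controls 1 to 3 against 125, 105 and 103 CPM across treated 1 to 3, with control 1 lowest. Its fitted log2 fold change was 0.29 ± 0.12 (SE; edgeR adjusted p = 0.0615) uncorrected, 0.44 ± 0.11 (adjusted p = 0.0132) corrected and 0.48 ± 0.12 (adjusted p = 0.0206) with the principal transcript. The corrected call was lost with an adjusted p of 0.0651 without control 1, 0.0646 without control 3 and 0.0978 without treated 1, and the uncorrected value passed with an adjusted p of 0.0175 without control 2.

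PSME1 and PSME2 encode the interferon-induced activator, and PSME3 its nuclear relative. Their uncorrected log2 fold changes were 0.06 (adjusted p = 0.713), -0.20 (adjusted p = 0.265) and 0.15 (adjusted p = 0.256). PSME2 was lower only with the principal transcript, at -0.47 ± 0.13 (adjusted p = 0.0334). That transcript has a GC content of 57.5%, against 51.3% for the longest one.

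Across the tested members all 3 treated libraries lay above all 3 controls for 15 (31.9%), against 21.8% of all tested genes. They lay below all controls for 17 (36.2%), against 24.2%. The summed CPM of all 49 genes was 6717 ± 420.4 among the controls and 7148 ± 526 in the treated libraries (SD, n = 3). The individual sums of 6913, 7003 and 6234 CPM and of 7752, 6894 and 6796 CPM overlapped. The sum leans on few abundant members such as PSMD2, PSMB7 and PSMA7.

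Which members were low and which high followed GC content closely. Across the 47 tested members the fold change and the GC content of the longest transcript had a Pearson r of 0.75 and a Spearman rho of 0.71. Across 15487 tested genes with a known GC content they were 0.59 and 0.66. The points are genes of the same 6 libraries and no replicates of each other. The 16 lower members had a median GC content of 41.3% (range 32.0% to 52.2%), the 7 higher 53.1% (43.6% to 58.8%) and the 24 others 49.7%.

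Below a GC content of 45%, 12 of 16 members (75.0%) were lower, against 43.1% of the 5309 tested genes of that kind. The one higher gene below that line was PSMB2. At 45% or more, 4 of 31 members were lower (12.9%, against 6.00% of 10178 genes) and 6 were higher (19.4%, against 22.5%). The 4 lower ones were PSMC1, PSMD7, PSMG1 and PSMG2. Whether the trend comes from the treatment or from the libraries was not tested.

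**Figure D3:**
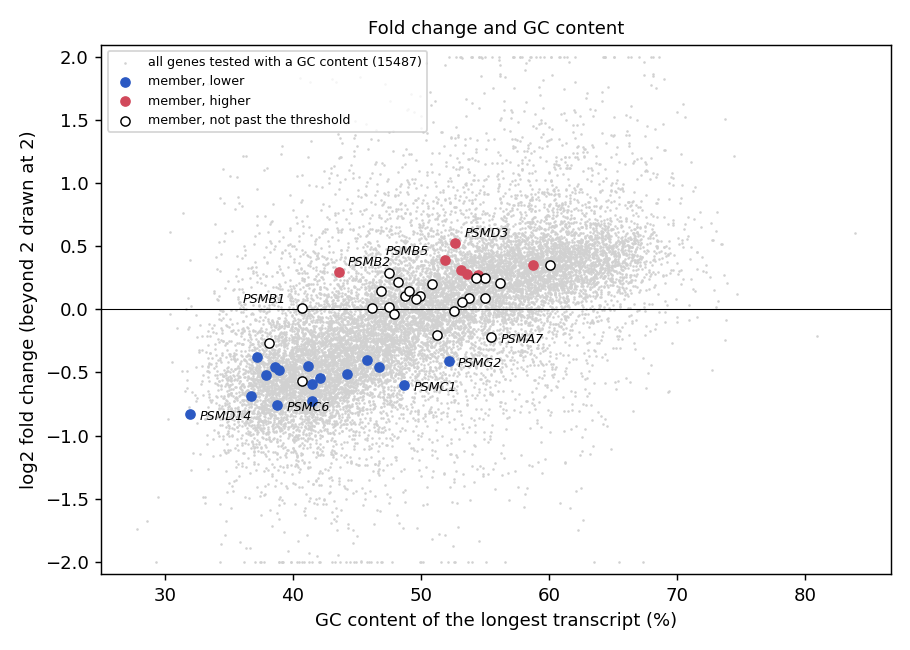
Uncorrected log2 fold change against the GC content of the longest transcript, with 15487 tested genes in grey, lower members in blue, higher members in red and members not past the threshold as open points (values beyond 2 in size are drawn at 2). The lower members gather at the left, with a median GC content of 41.3%, with PSMB2 at 43.6% among the higher members and PSMC1 at 48.7% and PSMG2 at 52.2% among the lower ones.

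Some members share their sequence with other annotated genes. In GENCODE 29, more than 50% of the coding bases of 5 members also belong to another gene on the same strand, mostly a read-through transcript: PSMA2 (97.1%), PSMA1 (88.6%), PSMA6 (70.4%), PSMD9 (58.7%) and PSMB10 (58.3%). The same holds for 6.83% of the 19951 protein-coding genes with coding bases. These 5 had control levels of 0.395 to 3.64 CPM per kilobase of merged exons, with a median of 1.47. The other 41 tested proteasome genes ran from 3.36 for PSME4 to 328 for PSMB7, with a median of 24.2. All alpha subunits are needed in equal numbers in the ring, as background; PSMA2 stood at 0.395 ± 0.0631 and PSMA6 at 0.492 ± 0.0830 CPM per kilobase beside 26.8 ± 1.99 for PSMA5 and 294 ± 32.4 for PSMA7 (mean ± SD over the 3 controls).

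The genes that share those bases held few reads: 0 to 3 per library for the read-through partners of PSMA2, PSMA1, PSMA6 and PSMD9, and 2 to 28 for that of PSMB10. How reads in shared bases were assigned is not stated in the sources used here. The levels and the missing calls of these 5 members are uncertain for that reason. A different kind of copy, the 32 pseudogene rows named after members, held 123 to 288 reads per library in all, beside 232616 to 274921 in the 49 member rows. Of these rows, 19 had no read in any library, and the 3 that were tested did not pass the threshold.

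**Figure D4:**
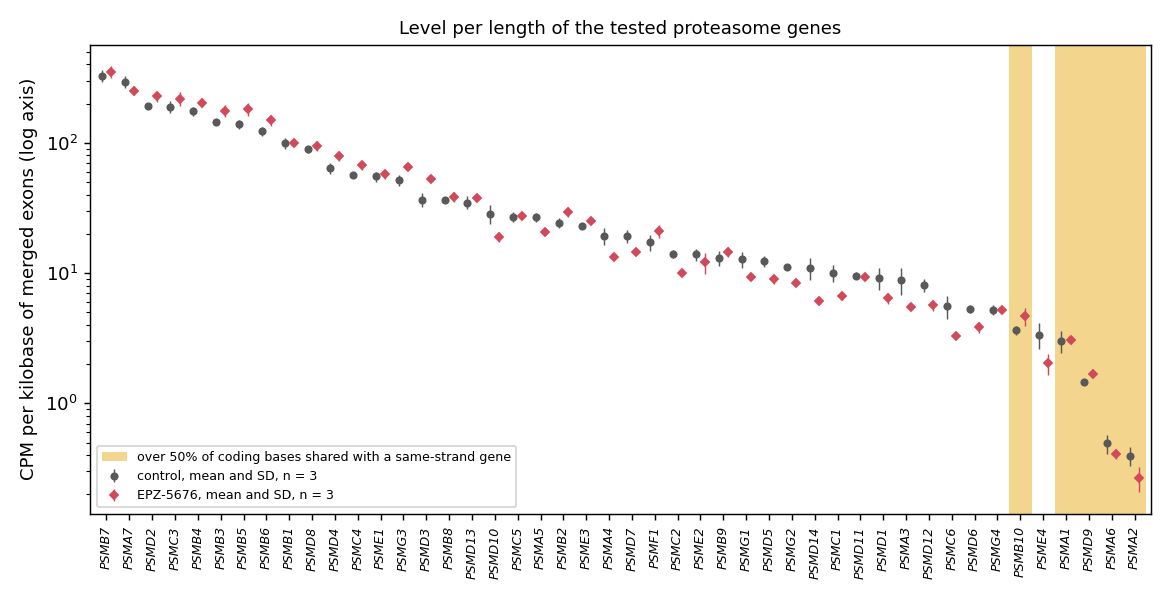
Level of the 46 tested proteasome genes in CPM per kilobase of merged exons (log axis), as mean and SD of 3 control (grey) and 3 treated (red) libraries, ordered by the control mean. The 5 genes on a shaded ground share over 50% of their coding bases with another gene on the same strand and all lie at the low end, from 0.395 for PSMA2 to 3.64 for PSMB10.

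The counts for genes around the proteasome can be read against the same shares of all tested genes: 15.0% higher and 18.7% lower uncorrected, 5.41% and 5.57% corrected, and 4.76% and 5.46% with the principal transcript. Their medians stand beside -0.05 uncorrected and -0.00 corrected over all tested genes. Of 14 tested associated factors with other names, 6 were lower and 1 was higher in the uncorrected test, 0 were lower and 2 higher after correction, and 1 was lower and 3 higher with the principal transcript. The median was -0.32 uncorrected and 0.18 corrected. ADRM1, a ubiquitin receptor of the base, was higher at 0.44 (adjusted p = 0.00323) and 0.02 ± 0.08 (adjusted p = 0.929) corrected. UCHL5, the deubiquitinase that ADRM1 binds, was lower at -0.66 (adjusted p = 0.00327) and -0.10 ± 0.14 (adjusted p = 0.730) corrected. POMP, the chaperone that completes the core particle, read 77.2, 64.1 and 59.5 CPM across controls 1 to 3 against 47.8, 50.7 and 45.7 CPM across treated 1 to 3. Its groups did not overlap, and its log2 fold change was -0.48 ± 0.12 (SE; edgeR adjusted p = 0.00394) but 0.10 ± 0.09 (adjusted p = 0.561) corrected. FBXO7, a binding partner of PSMF1, was lower at -0.38 (adjusted p = 0.00788), with 0.16 ± 0.09 (adjusted p = 0.276) corrected and -0.41 ± 0.08 (adjusted p = 0.00205) with the principal transcript. These uncorrected calls were kept whichever library was left out.

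Of 13 tested genes of the transcription circuit that sets proteasome levels, 2 were higher and 4 lower, after correction 0 and 2, and with the principal transcript 0 and 3. The median was -0.09 uncorrected and -0.10 corrected. NFE2L1, which drives the recovery of proteasome genes, read 209, 245 and 230.0 CPM across controls 1 to 3 against 266, 258 and 253 CPM across treated 1 to 3. The treated libraries lay above the controls by a small margin, and the log2 fold change was 0.18 ± 0.10 (SE; edgeR adjusted p = 0.153) and -0.01 ± 0.07 (adjusted p = 0.956) corrected. NFE2L2, its relative in the oxidative stress response, read 12.6, 10.3 and 10.4 CPM across controls 1 to 3 against 4.70, 7.78 and 5.79 CPM across treated 1 to 3, without overlap. It was lower in all 3 fits, at -0.86 ± 0.21 (SE; edgeR adjusted p = 0.00357), -0.62 ± 0.18 (adjusted p = 0.0268) corrected and -0.58 ± 0.18 (adjusted p = 0.0390) with the principal transcript. The corrected call was lost in 3 of the 6 fits that leave out a library, with adjusted p of 0.106 without control 1, 0.122 without treated 1 and 0.0931 without treated 3. NGLY1, the deglycosylase that activates NFE2L1, was lower at -0.82 (adjusted p = 2.8e-04), with -0.25 ± 0.10 (adjusted p = 0.111) corrected and -0.44 ± 0.10 (adjusted p = 0.00531) with the principal transcript. BACH1, a repressor at antioxidant elements, was lower at -0.65 (adjusted p = 0.00527) with overlapping groups, -0.10 ± 0.12 (adjusted p = 0.643) corrected, and missed the threshold without control 1 (adjusted p = 0.0502). The small MAF partners MAFK and MAFF were higher at 0.30 (adjusted p = 0.0227) and 0.32 (adjusted p = 0.0464), and both calls were lost without control 1, control 3, treated 1 or treated 3 (adjusted p of 0.0574 to 0.0896 for MAFK and of 0.0757 to 0.204 for MAFF). That of MAFF was also lost without treated 2 (adjusted p = 0.0715). Corrected, they had -0.11 ± 0.07 (adjusted p = 0.360) and -0.07 ± 0.10 (adjusted p = 0.722).

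Among 20 tested genes of the ubiquitin shuttles and the VCP segregase system, 6 were higher and 7 lower, and after correction 2 and 0. With the principal transcript 0 were higher and 2 lower, UBQLN1 and BAG1, neither of them called with the longest-transcript correction. The median was -0.02 uncorrected and 0.05 corrected. The shuttle UBQLN1 was lower at -0.64 (adjusted p = 8.5e-04), -0.08 ± 0.08 (adjusted p = 0.600) corrected and -0.29 ± 0.09 (adjusted p = 0.0339) with the principal transcript. The chaperone regulator BAG1, named after its values were seen, had -0.02 (adjusted p = 0.901) uncorrected, 0.07 ± 0.09 (adjusted p = 0.666) corrected and -0.27 ± 0.09 (adjusted p = 0.0437) with the principal transcript. UBXN7 and NBR1 were lower at -0.62 (adjusted p = 0.00328) and -0.46 (adjusted p = 0.00558), with -0.09 ± 0.10 (adjusted p = 0.642) and -0.17 ± 0.09 (adjusted p = 0.245) corrected. SQSTM1, the autophagy receptor also known as p62, was higher at 0.37 (adjusted p = 0.00705), or 0.07 ± 0.08 (adjusted p = 0.647) corrected. NPLOC4, a cofactor of VCP, was higher at 0.32 (adjusted p = 0.0127) and at 0.30 ± 0.07 (adjusted p = 0.00800) corrected, but 0.10 ± 0.07 (adjusted p = 0.428) with the principal transcript. BAG6 was higher at 0.36 (adjusted p = 0.0146), with 0.02 ± 0.07 (adjusted p = 0.886) corrected, and missed the threshold without control 1 (adjusted p = 0.0689) and without treated 1 (adjusted p = 0.0586).

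Of 19 tested genes for ubiquitin and its conjugation, 3 were higher and 7 lower, and both after correction and with the principal transcript 1 and 2. The median was -0.18 uncorrected and 0.06 corrected. UBE2H, a conjugating enzyme, was lower in all 3 fits, at -0.53 (adjusted p = 0.00234) uncorrected, -0.33 ± 0.09 (adjusted p = 0.0183) corrected and -0.29 ± 0.08 (adjusted p = 0.0267) with the principal transcript. The corrected call was lost without control 3 (adjusted p = 0.0573) and without treated 1 (adjusted p = 0.115). RPS27A, which encodes ubiquitin fused to a ribosomal protein, was lower at -0.50 (adjusted p = 0.00280), or -0.10 ± 0.09 (adjusted p = 0.539) corrected, and the conjugating enzyme UBE2D3 was lower at -0.43 (adjusted p = 0.00285), or 0.12 ± 0.08 (adjusted p = 0.405) corrected. Higher were CDC34 at 0.37 (adjusted p = 0.00856), the main activating enzyme UBA1 at 0.36 (adjusted p = 0.00959) and UBE2S at 0.31 (adjusted p = 0.0287). Corrected, these had -0.09 ± 0.07 (adjusted p = 0.505), 0.11 ± 0.07 (adjusted p = 0.398) and 0.08 ± 0.08 (adjusted p = 0.552). The call for UBE2S was lost without control 1, control 3, treated 1 or treated 3 (adjusted p of 0.0577 to 0.138).

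Of 16 tested genes that supply peptides to MHC class I, the path on which proteasome products are displayed, 0 were higher and 4 lower, and both after correction and with the principal transcript 0 and 3. The median was -0.05 uncorrected, that of all tested genes, and -0.20 corrected. B2M, the invariant chain of MHC class I, read 3169.9, 2778 and 2443 CPM across controls 1 to 3 against 1709.6, 1556 and 1657 CPM across treated 1 to 3. Every treated value was far below every control, and the log2 fold change was -0.77 ± 0.11 (SE; edgeR adjusted p = 8.6e-05) and -0.28 ± 0.09 (adjusted p = 0.0533) corrected. PDIA3, of the peptide-loading complex, was lower at -0.47 (adjusted p = 0.00124), or -0.12 ± 0.08 (adjusted p = 0.388) corrected. Both uncorrected calls were kept whichever library was left out.

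Of the genes of these lists called after the correction and not described above, the following are named after their values were seen. PAAF1, an assembly factor, had 0.48 ± 0.11 (adjusted p = 0.00719) corrected and 0.52 ± 0.11 (adjusted p = 0.00516) with the principal transcript. ZFAND5, a stress-induced partner of the proteasome, had 0.40 ± 0.10 (adjusted p = 0.00977) and 0.41 ± 0.10 (adjusted p = 0.00721). Both corrected calls were lost without treated 1 (adjusted p = 0.0760 and 0.0870). The VCP cofactor NSFL1C had 0.40 ± 0.10 (adjusted p = 0.00970) but 0.13 ± 0.09 (adjusted p = 0.400) with the principal transcript, and its corrected call was lost in 3 of the 6 fits that leave out a library: control 1, control 3 or treated 1 (adjusted p of 0.0529 to 0.0937). The conjugating enzyme UBE2R2 had 0.39 ± 0.11 (adjusted p = 0.0315) and 0.43 ± 0.12 (adjusted p = 0.0393), and lost its call without control 1, treated 1 or treated 3 (adjusted p of 0.0792 to 0.166). The small MAF partner MAFG had -0.27 ± 0.09 (adjusted p = 0.0442) and -0.26 ± 0.08 (adjusted p = 0.0488), a call kept in 1 of those 6 fits, that without control 2 (adjusted p of 0.0524 to 0.201 in the others). In the MHC list, HLA-B had -0.40 ± 0.08 (adjusted p = 0.00161) and -0.40 ± 0.07 (adjusted p = 0.00126), and kept its call in all 6. HLA-C had -0.27 ± 0.08 (adjusted p = 0.0239) but -0.20 ± 0.07 (adjusted p = 0.0826) with the principal transcript. NLRC5, the transactivator of that pathway, had -0.34 ± 0.09 (adjusted p = 0.0210) and -0.34 ± 0.09 (adjusted p = 0.0220). The corrected calls of HLA-C and NLRC5 were lost without control 1, treated 2 or treated 3 (adjusted p of 0.0663 to 0.159 and of 0.0616 to 0.133). HLA-B and HLA-C are related genes between which reads may be split, so their values are uncertain.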

How the data were processed

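RNA was sequenced from 6 SW1990 samples, 3 treated and 3 control, grouped by their titles. Per the labels' protocols, mRNA was captured with oligo(dT) beads and the second cDNA strand carried dUTP, which marks strand. Per the submitters' processing notes, HISAT2 2.2.1 aligned the reads to GRCh38. The authors deposited raw counts for each gene and sample. The counting tool, the use of strand and the annotation are points the sources used here leave unnamed. In position, all 58735 genes matched GENCODE release 29, which gave GC content, transcript length and overlaps.

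The test was that of edgeR 4.0.16 in R 4.3.3 (filterByExpr with a minimum count of 10, TMM, robust quasi-likelihood, two-sided, Benjamini-Hochberg adjusted p under 0.05 over 15496 genes; common dispersion 0.0301). The standard error is the fold change divided by the square root of F. CPM use TMM-scaled library sizes. The correction fitted, per library, natural splines with 5 degrees of freedom for GC content and length to the deviation of log2 CPM (prior count 2) from the gene mean, entered as an edgeR offset; genes without a transcript sequence took the median. The version with the principal transcript was chosen after seeing the data. A check on simulated data was made, but no recovery or false-call figure from it is given here. It therefore says nothing about the accuracy of the calls or of the GC and length correction.

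The members and lists were chosen with earlier results of these data known. Named in full by rule were members past the threshold, PSMB5 to PSMB10 and members whose call differed after correction; from each other list, the 3 smallest p in each direction among called genes, plus NFE2L1, NFE2L2 and POMP. Some genes that the rule names are not reported here. Of the list symbols, SHFM1, KIAA0368, TCF11 and UFD1L are older names with no row; DDI1, CDH1 and KDR had 0 reads. The 25 alternatives took out each library in turn, with and without the correction, blocked on replicate number, kept protein-coding genes alone, changed the filter, scaled by upper quartile or RLE, corrected for one property, or used limma-voom (limma 3.58.1) or DESeq2 1.42.0. No pairing by replicate number was visible: deviations of same-numbered controls and treated samples had correlations of -0.111, -0.0927 and 0.0466. Those of different number ran from -0.0799 to 0.155. With 3 libraries per group this cannot settle whether the samples were paired. Upstream sequences are from RefSeq (GRCh38.p14). The precision of each value is limited by 3 libraries per group; totals ran from 33970420 to 39749648 reads.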

Additional observations from a re-analysis of the deposited data

How the results depend on the processing

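Across 25 alternatives and 47 tested members, 913 of 1175 values were the same, 164 weaker, 53 stronger and 45 reversed. The same here means on the same side of the threshold and, for members called in the uncorrected test, in the same direction. Members called in neither fit counted as the same even if their sign changed. Examples are PSMC3 (0.21 uncorrected, -0.02 corrected) and PSMB1 (0.01 uncorrected, -0.06 without control 3). The values counted as reversed cover only members called in the uncorrected test, and they all came from GC-type corrections. They concern PSMA5 (0.18 with the GC correction alone, 0.18 with GC and length, 0.19 with the principal transcript, 0.18 with the replicate block and both), PSMD5 (0.02, 0.01, 0.04 and 0.01), PSMC2 (0.06, 0.05, 0.07 and 0.05), PSMD12 (0.04, 0.03, 0.04 and 0.04) and PSMD6 (0.10, 0.09 and 0.08, not with the principal transcript). With a library left out and both corrections they ran from 0.12 to 0.24 (0.13 and 0.16 among them), 0.00 to 0.03, 0.02 to 0.11, 0.01 to 0.17 (also 0.15) and 0.05 to 0.20 (also 0.14 and 0.16). Members called lower numbered 3 with the GC correction, 3 with GC and length, 5 with the principal transcript, 3 with the replicate block and both, 13 to 16 with a library left out and 3 to 5 with that and both corrections. Members called higher numbered 4 with the principal transcript, 11 with DESeq2, 1 to 11 with a library left out and 3 to 7 with that and both corrections. Over all genes, higher calls numbered 761, 838, 737 and 688 under these 4 corrections, 1350 (without treated replicate 1) to 2780 (without control replicate 2) with a library left out, and 398, 522, 592, 602, 612 and 848 with that and both corrections; lower calls numbered 730, 863, 846 and 685, 1753 (without control replicate 1) to 3167 (without control replicate 2), with 1884 without treated replicate 1, and 513, 545, 560, 568, 706 and 816. The median of the members was 0.08 without control replicate 1 and 0.11 without treated replicate 2, both corrected. The cause was not tested. With the replicate block, 3 members were higher and 16 lower, and 1677 and 2219 of all genes. No pairing by number was visible and the labels give none, so this says nothing about the strength of an effect.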
